A study of Oryza sativa with 8 samples.

Results

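The rice phytosiderophore pathway was followed through 8 genes, out of 40718 in the table of the DJ-background plants and 38977 in the ZH11 table, in leaf RNA from phosphate-starved seedlings. They were taken by gene ID and comprised the nicotianamine synthases NAS1, NAS2 and NAS3, the aminotransferase NAAT1, the deoxymugineic acid synthase DMAS1, the exporter TOM1 and the regulators IRO2 and IRO3. The set was chosen by its levels in all of these libraries and its ratios within each table, so every value below is a description and none is a test. The study sequenced 8 libraries of Oryza sativa leaves, 1 for each of 8 groups, from seedlings grown for 2 weeks on solid medium. Plants of wild-type DJ, of the mutant dgp1 and of the double mutant glk1glk2 were kept under control supply (DJ_CK, dgp1_CK, glk1glk2_CK) or moved to low phosphate, 10 µM KH2PO4, for 6 days (DJ_LP, dgp1_LP, glk1glk2_LP). The second wild type, ZH11, was kept under control supply (ZH11_CK) or moved to medium without phosphate for 24 h (ZH11_NP). GLK1 and GLK2 are transcription factors that activate photosynthesis genes, and DGP1 is known to repress their activity; the labels name no allele of either mutant. DGP1 itself was not analysed here.

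Grasses take up iron by secreting phytosiderophores of the mugineic acid family. Nicotianamine synthases join molecules of S-adenosylmethionine into nicotianamine, an iron chelator that plants also use to move metals inside the body; nicotianamine aminotransferase and deoxymugineic acid synthase turn it into deoxymugineic acid, and TOM1 exports that product. IRO2 is a bHLH transcription factor that activates these genes under iron deficiency, and IRO3 is a bHLH factor known as a negative regulator of the response. In rice, iron deficiency is known to raise NAS1 and NAS2 transcripts and to lower NAS3 transcript in leaves.

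Levels are as deposited, with no unit in the tables, and were read as FPKM, read numbers scaled to gene length and library size. The libraries held 12525772 to 16566008 reads on annotated genes, but the estimated number of cDNA fragments behind them differed widely. Where many genes shared 1 low read number, that number was taken as the reads of 1 fragment, which left about 275444 fragments in DJ_CK, 2366573 in DJ_LP, 757467 in dgp1_CK, 78613 in glk1glk2_CK and 85209 in glk1glk2_LP. In dgp1_LP, ZH11_CK and ZH11_NP no such number was found and each read counted as 1 fragment, an upper limit. The floor of a level, set at 3 fragments, was for a gene of 1 kb 11.5 FPKM under control and 1.02 under low phosphate supply in DJ, 5.06 and 0.222 in dgp1, 30.5 and 27.3 in glk1glk2, and 0.189 with and 0.175 without phosphate in ZH11. A fold given as "at least" is the listed level over the floor of a library with the gene at 0, and the 95% interval of that ratio begins lower. Where a pair of levels is given for a genotype, the control library comes first. Depth thus moved with the group: the control libraries of DJ and dgp1 were shallower than their low-phosphate partners, and the part of that depth in the ratios was not tested beyond the intervals. Intervals are 95% and cover counting error only, since each group has 1 library. They were taken over fragments in place of reads, since PCR copies are not independent molecules. In dgp1_LP, ZH11_CK and ZH11_NP they rest on reads, make no allowance for copies and may be too narrow. The targeted regulators were listed lower but present in the double mutant: GLK1 stood at 40.9 and 49.3 FPKM in glk1glk2_CK and glk1glk2_LP and at 89.2 to 273 in DJ and dgp1, and GLK2 at 32.2 and 53.0 against 83.4 to 106. In glk1glk2_CK both intervals lay below those of DJ and dgp1. In glk1glk2_LP the interval of GLK1 (23.9 to 90.2) met that of dgp1_LP. That of GLK2 (30.1 to 86.4) met those of DJ_CK, DJ_LP and dgp1_CK. Each of the 7 leaf markers (RBCS2, RBCS3, RBCS4, RCA, CAB1R, CAB2R and PSAD) was above 0 in each library, with summed levels of 5414 to 52723 FPKM. The sum was 13740 FPKM in DJ_LP and 48817 in dgp1_LP, and lowest in glk1glk2_CK and glk1glk2_LP, at 6635 and 5414.

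In dgp1_LP leaves, transcripts of the whole route from nicotianamine to deoxymugineic acid export, NAS3 excepted, had their highest listed levels of the study. For TOM1, at 12.8 FPKM, the glk1glk2 floors of 16.3 and 14.6 FPKM were higher, so a like level there would not have been detectable. The ZH11 libraries were normalized separately. DJ on low phosphate shared the higher NAAT1, IRO2 and IRO3 but not the higher NAS1, NAS2 or TOM1. NAS3 was lower on low phosphate in both backgrounds by nearly the same factor. Summed over the 8 genes, levels came to 4603.6 FPKM in dgp1_LP, against 291 in DJ_LP, 125 in dgp1_CK, 109 in DJ_CK, 29.9 and 30.2 in glk1glk2_CK and glk1glk2_LP, and 44.3 and 50.1 in ZH11_CK and ZH11_NP. The genes took 0.647% of all gene reads in dgp1_LP and 0.0618% in DJ_LP.

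**Figure D1:**
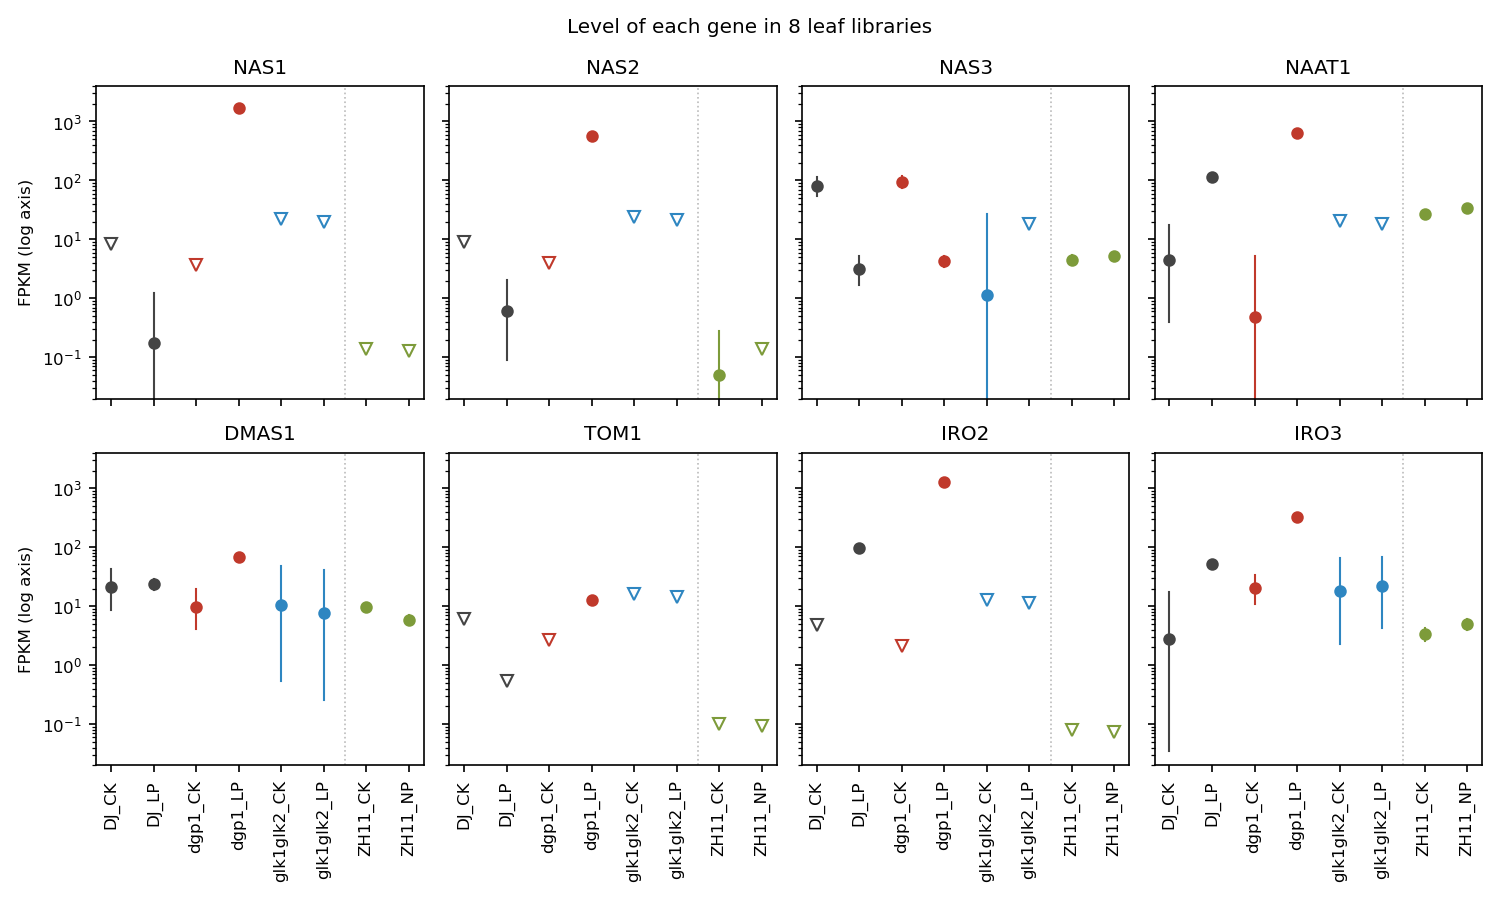
Level of each gene (FPKM, log axis) in the 8 libraries, 1 library per group; filled points are measured levels with 95% Poisson intervals over estimated fragments (cut at the lower axis limit), open triangles mark the 3-fragment floor of a library in which the gene is listed at 0, and the dotted line parts the separately normalized ZH11 table. NAS1, NAS2, NAAT1, DMAS1, TOM1, IRO2 and IRO3 have their highest filled point in dgp1_LP, and NAS3 has its highest filled points in DJ_CK and dgp1_CK.

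NAS1 (Os03g0307300, chromosome 3, 10929507 to 10930895, minus strand), a nicotianamine synthase, stood at 1677 FPKM in dgp1_LP (1659 to 1696) and 0.174 in DJ_LP, and was listed at 0 in the other 6 libraries. One library was thus high and every other at or under its floor. In dgp1_LP it ranked 58 in abundance among 25440 genes with reads. It was at least 461-fold higher than in dgp1_CK, where the floor for this gene is 3.64 FPKM. Against DJ_LP the listed ratio was 9614-fold, but the DJ_LP level rests on 5 reads, under 1 estimated fragment, and the interval of the ratio begins at 1355-fold. In the double mutant a level of up to 22.0 FPKM (glk1glk2_CK) or 19.7 FPKM (glk1glk2_LP) would not have been detectable at this depth. In ZH11 the floor was 0.136 and 0.126 FPKM, so NAS1 was below these levels with and without phosphate.

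NAS2 (Os03g0307200, chromosome 3, 10926469 to 10927729, plus strand), the second nicotianamine synthase, stood at 568 FPKM in dgp1_LP (557 to 579.6), 0.615 in DJ_LP and 0.0501 in ZH11_CK, and was listed at 0 in the other 5. The pattern was that of NAS1, with a single high library. It was at least 142-fold higher in dgp1_LP than in dgp1_CK and 924-fold higher than in DJ_LP (275 to 6265). NAS1 and NAS2 lie 1777 bases apart with their 3′ ends towards each other, and no other annotated gene lies between them. They are close paralogs, and how reads that match both were assigned is not given in the sources used here, so the NAS1 to NAS2 ratio of 2.95 in dgp1_LP is uncertain while the sum of both is less so.

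NAS3 (Os07g0689600, chromosome 7, 29323098 to 29324607, plus strand), the third synthase, ran the other way. Its level with control and with low phosphate supply was 80.7 and 3.11 FPKM in DJ, 94.8 and 4.26 in dgp1, and 1.146 and 0 in glk1glk2; in ZH11 it was 4.47 with and 5.19 without phosphate. Both DJ-type control libraries were high and both low-phosphate libraries low, with intervals that do not meet. The level was 25.9-fold lower on low phosphate in DJ (13.4 to 52.8) and 22.3-fold lower in dgp1 (16.3 to 30.4). On the log2(FPKM + 1) scale the ratios were -4.31 and -4.19, a difference of 0.12. ZH11 under control supply was near the low-phosphate level of DJ, although the tables were normalized separately and no ratio was formed between them. In glk1glk2_CK the listed level is under 1 estimated fragment and below the floor of 20.2 FPKM; the fold by which it lay below DJ_CK has an interval that begins at 2.79.

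The make-up of the summed synthase level in dgp1_LP differed from that in DJ_CK, DJ_LP and dgp1_CK. NAS3 made up 100% of the summed NAS level in DJ_CK and dgp1_CK, 79.8% in DJ_LP and 0.189% in dgp1_LP, where NAS1 gave 74.6% and NAS2 25.3%. The floors of NAS1 and NAS2 were 8.30 and 9.14 FPKM in DJ_CK, and 3.64 and 4.01 in dgp1_CK. In DJ_LP both genes lay under their floors, so the shares in DJ_CK and DJ_LP cannot be told apart. The sum of the 3 went from 80.7 to 3.90 FPKM between control and low phosphate in DJ, and from 94.8 to 2249.5 FPKM in dgp1. Low phosphate thus went with less summed NAS transcript in DJ and with more in dgp1.

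NAAT1 (Os02g0306401, chromosome 2, 11997254 to 12002625, minus strand), which makes the keto intermediate of deoxymugineic acid from nicotianamine, stood at 4.40 (control) and 114 FPKM (low phosphate) in DJ, at 0.486 and 638 in dgp1, at 0 in both glk1glk2 libraries, and at 26.6 with and 34.0 without phosphate in ZH11. Both DJ-type low-phosphate libraries were high. The gene was 25.8-fold higher in DJ_LP than in DJ_CK (6.48 to 282), and 5.62-fold higher in dgp1_LP than in DJ_LP (5.13 to 6.15). Against dgp1_CK the interval of the ratio begins at 124-fold, since the control level rests on 9 reads. NAAT1 was at least 6.18-fold lower in glk1glk2_LP than in DJ_LP. In ZH11 it was 1.28-fold higher without phosphate (1.152 to 1.42), under the 2-fold threshold. NAAT1 was the most abundant of the 8 genes in both ZH11 libraries, its interval clear of the next gene.

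DMAS1 (Os03g0237100, chromosome 3, 7229093 to 7231670, plus strand), the reductase that completes deoxymugineic acid, was the least variable. With control and low phosphate supply it was 21.3 and 23.8 FPKM in DJ, 9.88 and 69.2 in dgp1, 10.4 and 7.76 in glk1glk2, and in ZH11 it was 9.79 with and 5.97 without phosphate. It had reads in each library and was highest in dgp1_LP, and both double-mutant values lie below the floors of 23.7 and 21.3 FPKM. The ratio of DJ_LP to DJ_CK was 1.12 (0.523 to 2.83), whereas dgp1_LP was 7.01-fold above dgp1_CK (3.47 to 16.8) and 2.91-fold above DJ_LP (2.35 to 3.65). When the recovered read totals set the scale, the log2 ratio of dgp1_LP to DJ_LP was 0.97 in place of 1.503, just short of 2-fold. In ZH11 it was 1.64-fold lower without phosphate (1.31 to 2.06), under the threshold used for a call.

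TOM1 (Os11g0134900, chromosome 11, 1618494 to 1623978, minus strand), the deoxymugineic acid exporter, stood at 12.8 FPKM in dgp1_LP (11.5 to 14.3) and at 0 in each of the other 7 libraries. It was at least 23.6-fold higher than in DJ_LP and at least 4.75-fold higher than in dgp1_CK. The floor in ZH11_CK, 0.101 FPKM, was also well below that level, while the floors of 16.3 and 14.6 FPKM in the double mutant were above it. ZIFL5, a transporter of the same family that lies 2507 bases from TOM1 on the same strand, stood at 2.12 and 0.154 FPKM in the control and low-phosphate libraries of DJ and at 0 and 2.35 FPKM in those of dgp1, all below 5 FPKM.

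IRO2 (Os01g0952800, chromosome 1, 41971444 to 41978093, minus strand), the bHLH activator, stood at 97.6 FPKM in DJ_LP (90.5 to 105) and 1301 in dgp1_LP (1288 to 1313), and was listed at 0 in the other 6 libraries. Both DJ-type low-phosphate libraries were high and the rest at 0. The gene was at least 20.1-fold higher in DJ_LP than in DJ_CK and at least 612-fold higher in dgp1_LP than in dgp1_CK. The intervals of these ratios begin at 16.3-fold and 497-fold. Between the low-phosphate libraries it was 13.3-fold higher in dgp1 (12.4 to 14.4) and at least 8.50-fold lower in glk1glk2 than in DJ. In DJ_LP the presence of IRO2 at 97.6 FPKM stood beside NAS1 and NAS2 levels under the floor. In ZH11_NP, 24 h without phosphate, IRO2 was below the floor of 0.0738 FPKM.

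IRO3 (Os03g0379300, chromosome 3, 15000100 to 15002140, plus strand), the bHLH repressor, stood at 2.77 (control) and 52.1 FPKM (low phosphate) in DJ, 20.1 and 333 in dgp1, 18.4 and 22.4 in glk1glk2, and 3.34 with and 4.94 without phosphate in ZH11. It was the only one of the 8 genes besides DMAS1 with reads in each library. Low phosphate went with a 18.8-fold higher level in DJ (2.90 to 1500) and a 16.5-fold higher level in dgp1 (9.77 to 30.6); the DJ ratio rests on under 1 estimated fragment in DJ_CK, so the responses cannot be ranked. On low phosphate dgp1_LP was 6.39-fold above DJ_LP (5.49 to 7.47). Under control supply dgp1 was listed 7.26-fold above DJ, with an interval (0.960 to 615) that includes 1, since the DJ_CK value is under 1 estimated fragment. The ZH11 ratio was 1.48 (1.06 to 2.08), with both levels under 5 FPKM.

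**Figure D2:**
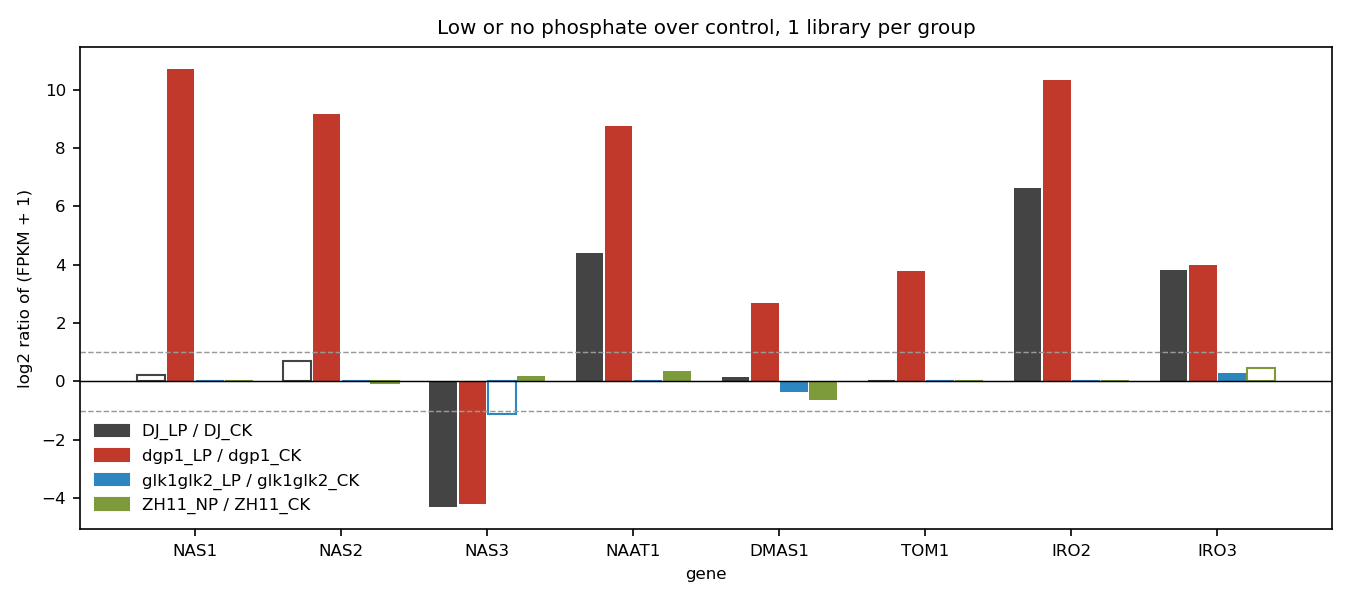
Log2 ratio of (FPKM + 1) of low phosphate (DJ, dgp1, glk1glk2) or no phosphate (ZH11) to control for each gene, 1 library per group; open bars are genes under 5 FPKM in both libraries and dashed lines mark 2-fold. The dgp1 bars reach 10.71 for NAS1 and 10.35 for IRO2, NAS3 is at -4.31 in DJ and -4.19 in dgp1, and ZH11 bars stay within 2-fold.

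The order of levels per length differed between libraries. In dgp1_LP it ran NAS1, IRO2, NAAT1, NAS2, IRO3, DMAS1, TOM1 and NAS3, and the Poisson interval of each lay above that of the next. In DJ_LP it began with NAAT1 and IRO2, whose intervals overlap, followed by IRO3 and DMAS1, each clear of the next. NAS3 led in DJ_CK and dgp1_CK, clear of DMAS1 and IRO3 respectively. Below it the intervals of neighbours overlapped in both control libraries. In the double mutant no neighbours could be told apart, and each value lay under its floor.

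Calls of higher and lower were made where the log2(FPKM + 1) ratio reached 2-fold and 1 of the pair of libraries had at least 5 FPKM. Each of the 8 genes reached 5 FPKM in at least 1 library of the larger table, and 3 did so in the ZH11 table. In DJ, 5 of the 8 passed this filter. Of these, 3 were higher on low phosphate (NAAT1, IRO2 and IRO3, each below 5 FPKM in DJ_CK) and NAS3, below 5 FPKM in DJ_LP, was lower. Of all genes compared, 23.1% were higher and 24.3% lower. In dgp1, 7 were higher and NAS3 was lower, beside 24% and 20.7% of all genes. Of the 7, 5 had at least 5 FPKM only in dgp1_LP, and NAS3 had it only in dgp1_CK. For these genes passing the filter already meant a difference. On low phosphate, all 7 that passed were higher in dgp1 than in DJ, beside 20.9% higher and 13.4% lower among all genes. Of these 7, NAS1, NAS2 and TOM1 had at least 5 FPKM only in dgp1_LP, so they had to be higher there. Under control supply, 3 passed. In dgp1, 1 of these was higher than in DJ (IRO3) and 1 lower (DMAS1), beside 16.1% and 14.1%, and both of these intervals include 1. IRO3 had at least 5 FPKM only in dgp1_CK, so it had to be higher there. Because these contrasts were in view when the genes were picked, nothing is read from the counts against their background.

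In glk1glk2 none of the 8 genes was higher or lower on low phosphate, beside 23.3% and 23.1% of all genes; only DMAS1 and IRO3 passed 5 FPKM, with ratios of 0.750 (0.0140 to 28.5) and 1.22 (0.132 to 14.4). Against DJ under control supply, of 3 that passed, IRO3 was counted as higher and NAS3 as lower (background 27.4% and 31.3%). IRO3 had at least 5 FPKM only in glk1glk2_CK and NAS3 only in DJ_CK, so the filter already set both directions. Only the NAS3 interval leaves out 1. On low phosphate all 4 that passed were counted as lower in glk1glk2 than in DJ and none as higher (background 26% and 23.5%): NAAT1, DMAS1, IRO2 and IRO3. NAAT1 and IRO2 had at least 5 FPKM only in DJ_LP. The intervals of NAAT1 and IRO2 leave out 1. Those of DMAS1, 3.06-fold lower (0.570 to 93.0), and IRO3, 2.33-fold lower (0.757 to 12.3), do not. With so few fragments, NAS1, NAS2 and TOM1 could have been as high in the double mutant as in DJ_LP without being seen. The NAS1, NAS2, NAAT1 and IRO2 levels of dgp1_LP lay far above these floors. In ZH11 none of the 8 was higher or lower, beside 1.61% and 3.19% of all genes.

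**Figure D3:**
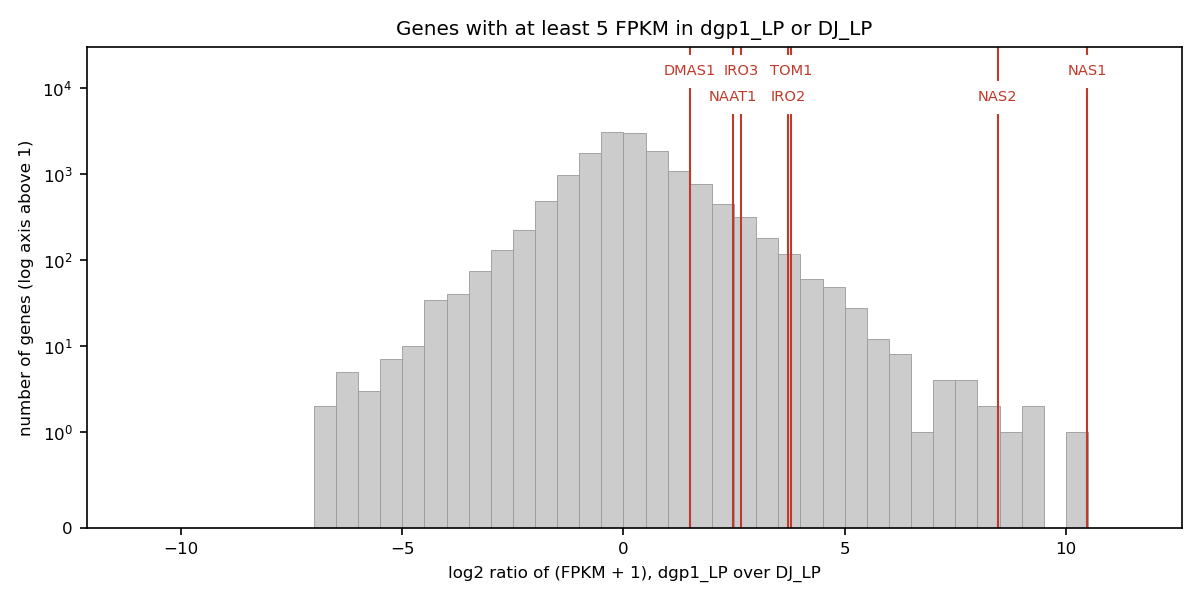
Number of genes (log axis above 1) by log2 ratio of (FPKM + 1) of dgp1_LP to DJ_LP, over the 14814 genes with at least 5 FPKM in 1 of these libraries; red lines mark the 7 pathway genes among them. NAS1 lies at 10.48, the highest of all genes, and NAS2 at 8.46 ranks 5, while DMAS1 at 1.503 lies on the shoulder of the distribution.

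The low-phosphate pair of dgp1 and DJ had the most fragments of the DJ-background comparisons. In it NAS1 ranked 1, NAS2 5, TOM1 213, IRO2 230, IRO3 661, NAAT1 798 and DMAS1 1999 among 14814 genes, and NAS3 stayed below 5 FPKM in both libraries, at 4.26 and 3.11 FPKM. The listed folds between the mutant and the wild type thus went from 2.91 for DMAS1 to 924 for NAS2, with that of NAS1 above both. Scaling to own read totals lowered the median gene by 0.51 on the log2 scale in this pair and left 6 of the 7 genes past 2-fold. Bulk leaf RNA cannot tell fewer cells of a type from less RNA per cell.

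Other genes of iron handling, 32 in a list drawn up with some of these results known, were measured alongside. In dgp1, 14 were higher on low phosphate and 3 lower of 26 that passed 5 FPKM, beside 24% and 20.7% of all genes compared, with a median log2 ratio of 1.25 beside 0.03. Of these 26, 9 passed only through dgp1_LP and so had to be higher there, and 1 passed only through dgp1_CK. In DJ, 6 were higher and 3 lower of 21, beside 23.1% and 24.3% of all genes, with a median of 0.28 beside -0.05, and 4 passed only through DJ_LP; the share higher was near that of all genes. Between dgp1_LP and DJ_LP, 12 were higher and 2 lower of 26, beside 20.9% and 13.4%, with a median of 0.70 beside 0.08. Here 5 passed only through dgp1_LP and 1 only through DJ_LP.

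By role, the metal and chelate transporters had 5 higher in dgp1_LP than in dgp1_CK and none lower, of 6 that passed 5 FPKM among 10, beside 24% and 20.7% of all genes. All 5 (YSL15, YSL2, IRT2, NRAMP1 and ENA1) were at 0 in dgp1_CK and passed only through dgp1_LP. NRAMP1, a metal transporter, stood at 0 and 27.4 FPKM with control and low phosphate supply in DJ, 0 and 517.9 in dgp1, and 4.67 and 0 in glk1glk2. It was at least 4.999-fold higher in DJ_LP and at least 216-fold higher in dgp1_LP than in the matching control, and so followed IRO2 in being high in both low-phosphate libraries. YSL15, which takes up iron bound to deoxymugineic acid, stood at 33.2 FPKM in dgp1_LP and at 0 in the other 5 libraries of that table, at least 81.9-fold higher than in DJ_LP, as TOM1 was in pattern. ENA1, a nicotianamine exporter, stood at 36.0 FPKM in dgp1_LP and 0.164 in DJ_LP. The ferrous iron transporter IRT2 stood at 5.31 FPKM in DJ_LP and 26.8 in dgp1_LP, whereas IRT1 reached only 2.89 in dgp1_LP. YSL16, a metal-nicotianamine transporter, was lower in DJ_LP than in DJ_CK, at 37.4 against 146 FPKM, and stood at 137 against 184 in dgp1.

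Among genes listed under sensing and transcription, 5 of 9 that passed were higher and 1 lower in dgp1 on low phosphate, beside 24% and 20.7% of all genes. The 5 include Os07g0142100 and Os01g0647200, which have no name or description in the larger table, so their place in this role is not given there. Of the 5, bHLH156 and Os07g0142100, at 0 and 1.52 FPKM in dgp1_CK, passed only through dgp1_LP and so had to be higher there. In DJ 2 of 8 that passed were higher and none lower, beside 23.1% and 24.3%, so the share higher was near that of all genes. These 2 were the undescribed genes Os07g0142100 and Os01g0647200, and Os07g0142100 passed only through DJ_LP. The iron-binding ubiquitin ligases HRZ1 and HRZ2, negative regulators of the iron response, stood at 193 and 172 FPKM in dgp1_LP against 21.4 and 6.46 in DJ_LP, 8.995-fold (7.97 to 10.2) and 26.6-fold (20.2 to 35.7) higher. In DJ they were within 2-fold of their control levels of 17.5 and 7.54 FPKM. bHLH156, a bHLH factor known to act with IRO2, stood at 37.2 FPKM in dgp1_LP and 0.104 in DJ_LP, with a ratio interval that begins at 33.6-fold. IDEF1, which regulates iron-deficiency genes upstream of IRO2, stood at 16.04 FPKM in dgp1_LP and 16.1 in DJ_LP, a ratio of 0.997 (0.782 to 1.28). PRI1, a bHLH factor upstream of IRO2 and IRO3, was within 2-fold in each low-phosphate or no-phosphate comparison. bHLH058 was lower in dgp1_LP than in dgp1_CK, at 28.3 against 83.6 FPKM.

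For 2 members of this list, Os07g0142100 (chromosome 7) and Os01g0647200 (chromosome 1), the larger table gives no name or description, and in dgp1_LP their levels passed those of all 8 pathway genes. Os07g0142100 stood at 0 and 483 FPKM with control and low phosphate supply in DJ, 1.52 and 9587 in dgp1, 0 and 22.8 in glk1glk2, and 0 in both ZH11 libraries. It ranked 6 in abundance in dgp1_LP and was 19.8-fold higher there than in DJ_LP (18.5 to 21.3). Os01g0647200 stood at 15.4 and 338 FPKM in DJ, 53.9 and 3843 in dgp1, 128 and 138 in glk1glk2, and at 2.16 with and 18.8 without phosphate in ZH11. In ZH11 it was 8.67-fold higher without phosphate (6.86 to 11.1). It was the only one of the 40 iron genes that passed 2-fold and 5 FPKM in that pair.

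Storage and organelle genes did not move as a block. MIR, the mitochondrial iron-regulated gene, stood at 561 FPKM in dgp1_LP, 0.413 in DJ_LP and 0 in the other 4 libraries of that table, as NAS2 did. The vacuolar iron transporter gene VIT2 stood at 67.6 and 14.6 FPKM in DJ and at 10.4 and 0.360 in dgp1, lower on low phosphate in both backgrounds. MIT, the mitochondrial iron importer, was lower in dgp1_LP, at 12.1 FPKM against 76.9 in dgp1_CK, 64.0 in DJ_CK and 67.3 in DJ_LP. The ferritin genes FER1 and FER2, for iron storage in plastids, stood at 26.4 and 68.5 FPKM in dgp1_LP and at 37.1 and 71.9 in DJ_LP, ratios of 0.712 (0.591 to 0.863) and 0.953 (0.829 to 1.10). Within dgp1, FER2 was 2.14-fold higher on low phosphate than under control supply (1.41 to 3.43), where its level was 32.0 FPKM.

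The methionine cycle, which supplies S-adenosylmethionine to the synthases, had 2 genes higher on low phosphate in either background, of 6 that passed among 7, a share near the 23.1% (DJ) and 24% (dgp1) of all genes. SAM3, an S-adenosylmethionine synthetase, stood at 0 and 34.6 FPKM with control and low phosphate supply in DJ, 0.870 and 34.6 in dgp1, and 0 in both glk1glk2 libraries, so its level did not differ between the backgrounds beyond counting error (ratio 1.00, 0.843 to 1.20). SAM3 passed only through the low-phosphate library in either background and so had to be higher there. The methylthioribose kinase gene MTK was 2.19-fold higher in DJ_LP than in DJ_CK (1.23 to 4.28) and 2.75-fold higher in dgp1_LP than in dgp1_CK (1.97 to 3.95). Sip2A, annotated as a dioxygenase of this cycle, was 2.08-fold lower in DJ_LP than in DJ_CK.

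**Figure D4:**
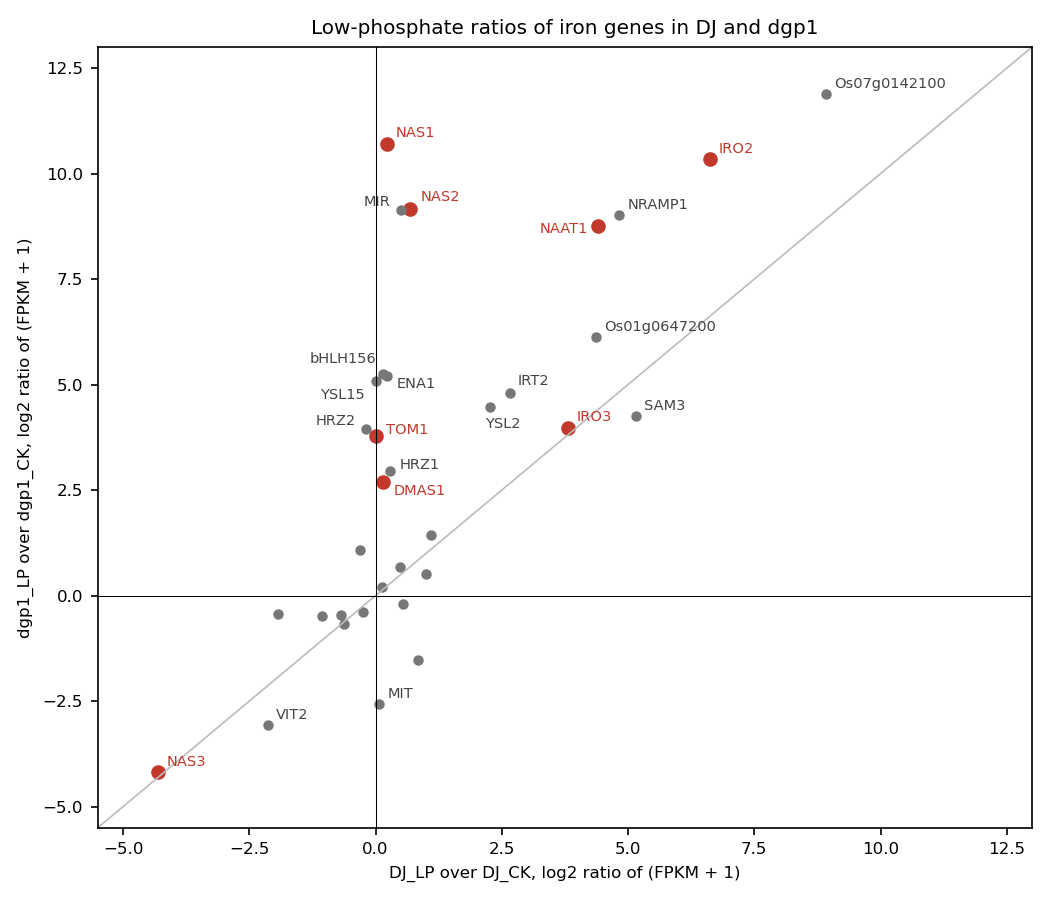
Low-phosphate log2 ratio of (FPKM + 1) in DJ (x axis) and dgp1 (y axis) for the 34 iron genes with at least 5 FPKM in 1 library of either pair, 1 library per group; red points are the 8 pathway genes, grey points the other 26, and the grey line marks equal ratios. NAS1 and NAS2 lie near 0 in DJ and at 10.71 and 9.15 in dgp1, whereas NAS3 lies near the line, as does IRO3, whose DJ ratio rests on under 1 fragment in DJ_CK.

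In the double mutant, 2 of the other iron genes were higher and 1 was lower on low phosphate, of 18 that passed, beside 23.3% and 23.1% of all genes. Of these the interval of FER1, 2.07-fold lower in glk1glk2_LP at 95.5 against 198 FPKM, leaves out 1. That of IDI2, a methylthioribose-1-phosphate isomerase at 69.1 against 33.5 FPKM, begins at 0.716, and Os07g0142100 lay under its floor in both libraries. Against DJ_LP, glk1glk2_LP had 8 lower and 2 higher of 22, beside 26% and 23.5%. Of the 22, 4 passed only through DJ_LP and 1 only through glk1glk2_LP. SAM3 and NRAMP1 stood at 0 against 34.6 and 27.4 FPKM, and Os07g0142100 at 22.8 against 483.

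Under control supply, 3 of the other iron genes were higher in dgp1 than in DJ and 2 lower, of 17 that passed, beside 16.1% and 14.1% of all genes. Higher in dgp1_CK were bHLH058, 4.21-fold with an interval that begins at 1.63, Os01g0647200, 3.50-fold with one that begins at 1.75, and IDI2, 2.19-fold with one that begins at 1.30. VIT2, at 10.4 against 67.6 FPKM, and FER2, at 32.0 against 89.4, were lower.

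Since the phytosiderophore genes are best known from roots, root markers were set beside them. Of 6 markers (LSI1, LSI2, RCC3, CASP1, NRT2.1 and AMT1;2), CASP1 is listed in the ZH11 table alone. LSI2, NRT2.1 and AMT1;2 were at 0 in each library, CASP1 was at 0 in both ZH11 libraries, and RCC3 was at 6.55 FPKM in DJ_CK and 0 elsewhere. In dgp1_LP the floor was 0.106 FPKM for LSI2 and 0.266 for RCC3. LSI1, the silicon channel, stood at 63.2 and 25.1 FPKM in DJ and at 53.6 and 34.5 in dgp1. The summed level of the list ran from 12.2 FPKM in glk1glk2_LP to 69.8 in DJ_CK and was 34.5 in dgp1_LP. In each library but DJ_CK this sum was LSI1 alone. The part of root transcripts in the pathway levels was not tested.

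The genes whose profiles over the 6 DJ-background libraries lay closest were sought among 10440 genes with at least 10 FPKM in 1 library and a name or described product. Closeness was the root mean square difference of centred log2(FPKM + 1) values. MIR was closest to NAS2, at 0.0708, and MIR and NAS2 were the second and the third closest to NAS1, at 0.616 and 0.638, after Os01g0800900 at 0.478. Os01g0800900 was at 677 FPKM in dgp1_LP and 0 in the other 5. It was the second closest to NAS2, and LATE EMBRYOGENESIS ABUNDANT PROTEIN 17, at 204 FPKM in dgp1_LP, the third, at 0.540. All of these genes were at or near 0 outside dgp1_LP, so their closeness shows little more than similar levels in that library. NAAT1 was the closest to IRO2, at 1.04, and IRO2 the third closest to NAAT1, after an O-methyltransferase-domain gene, Os04g0196200, and a cytochrome P450, Os08g0106300. This P450 gene, at 0 and 19.4 FPKM in DJ and at 0 and 278 in dgp1, was also the second closest to IRO2. DMAS1 lay closest to VP1/ABI3-LIKE 2, at 0.272, and IRO3 to Os08g0547800, which has an alpha/beta hydrolase fold, at 0.589. For NAS3 the closest gene with a described protein was SWEET3B, a sugar transporter, at 0.683, which stood at 50.8 and 0 FPKM in DJ and at 50.6 and 3.93 in dgp1. The neighbours of TOM1, such as PECTIN METHYLESTERASE 3 at 0.00401, share little more than a low level in dgp1_LP and 0 elsewhere.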

How the data were processed

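Leaf RNA was measured in 8 libraries, 1 per group. The authors deposited 1 table for 6 libraries and 1 for ZH11; per the labels' protocols, libraries were made with a strand-marking kit (NEBNext Ultra Directional) from total RNA. The deposited values carry no unit and were read as FPKM, since each nonzero value times gene length was a whole multiple, within 0.01, of a step common to its library for 100% of values. Aligner, counting and genome build are not given in the sources used here; coordinates are those of the tables, and no sequence was used.

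Reads were recovered from that step. The reads of 1 fragment were set to the peak in the number of genes per read count (5 to 600), by a rule adjusted once the distributions had been looked at: 50 in DJ_CK, 7 in DJ_LP, 21 in dgp1_CK, 182 in glk1glk2_CK and 147 in glk1glk2_LP. A fold against a 0 is a bound over a floor of 3 fragments per library. Level intervals are exact Poisson, ratio intervals exact conditional binomial, both at 95%. Ratios were formed within a table, as log2 of FPKM + 1, and called at 2-fold with at least 5 FPKM in 1 library. With 1 library per group there is no test. The genes and lists were chosen with earlier results of these data known. Of the other iron genes, the 3 highest and 3 lowest per comparison were to be named; others (ENA1, IRT1, IRT2, HRZ1, IDEF1, PRI1 and those beside them), like the neighbouring genes, were added with their values in view. The profile search was limited to described genes after a first run. The calls were checked on simulated data. Alternatives were pseudocounts of 0.1 and 5, no filter or 10 FPKM, 2 other scalings, a 3-fold threshold and other fragment sizes. Python 3.11.15, NumPy 2.4.6, pandas 2.3.3, SciPy 1.17.1 and Matplotlib 3.10.9 were used.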

Additional observations from a re-analysis of the deposited data

Results flagged for a closer look

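DMAS1 was lower in dgp1 than in DJ under control supply (log2 ratio -1.04, 9.88 against 21.3 FPKM) and higher on low phosphate (1.503, 69.2 against 23.8 FPKM), so the genotype difference points in opposite directions under the 2 supplies. IRO3 was higher in glk1glk2 than in DJ under control supply (2.36, 18.4 against 2.77 FPKM) and lower on low phosphate (-1.18, 22.4 against 52.1 FPKM). The unnamed gene Os01g0647200 did the same (2.97, 128 against 15.4 FPKM, and -1.28, 138 against 338 FPKM). None of these differences between supplies was tested, since each group has 1 library. The control ratio of DMAS1 (interval 0.144 to 1.51) and both ratios of IRO3 have intervals that include 1.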

How the results depend on the processing

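The number of the 8 genes called higher stayed within 1.5 times its main count in all 56 combinations of comparison and setting. The number called lower moved in 7. Without a filter on low values it was 1 in glk1glk2 on low phosphate (0 in the main setting), 2 for dgp1 over DJ at control (1) and 2 for glk1glk2 over DJ at control (1, also 2 with pseudocount 0.1). For dgp1 over DJ at control, pseudocount 5 and the 3-fold threshold each gave 0. For glk1glk2 over DJ on low phosphate, 3-fold gave 2 (4). The other iron genes called moved at 3-fold to 1 (3) for the glk1glk2 response, 3 (5) for dgp1 over DJ at control and 5 (10) for glk1glk2 over DJ on low phosphate, and without a filter to 9 (5) for dgp1 over DJ at control. No called member ratio changed sign; that of NAS3 for dgp1 over DJ at control, not called, went from 0.23 to -0.04 with own read totals. Of the member ratios, 18 of 140 left the main interval, among them NAS1 in dgp1, at 8.39 with pseudocount 5. Intervals away from 1 numbered 1 in place of 0 for dgp1 over DJ at control with the further, lower read peak as 1 fragment. With each read as 1 fragment they numbered 2 (0) for the glk1glk2 response, 3 (0) and 3 (1) for dgp1 and glk1glk2 over DJ at control, and 4 (2) for glk1glk2 over DJ on low phosphate.

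Over all genes, called numbers without a filter were 11492 for the DJ response (7278), 10933 for dgp1 (6972), 7775 for dgp1 over DJ at control (4395), 12050 for glk1glk2 over DJ on low phosphate (7597) and 1299 for ZH11 (721). At 3-fold they were 4713 for DJ, 2338 for dgp1 over DJ at control, 2740 for dgp1 over DJ on low phosphate (5084) and 238 for ZH11. For dgp1 over DJ at control and ZH11, pseudocount 5 gave 2873 and 323, and 10 FPKM 2784 and 478. Own read totals moved the share of higher among called genes from 48.8% to 64.7% in DJ, from 53.3% to 34.9% and from 46.7% to 59.0% for dgp1 and glk1glk2 over DJ at control, and from 60.9% to 32.1% for dgp1 over DJ on low phosphate, with median shifts of 0.37, -0.26, 0.37 and -0.51 log2. Beyond settings that change the number of genes compared, the cause was not tested. The few fragments of both glk1glk2 libraries limit all their values. No paired analysis was possible because each group holds 1 library and the labels give no replicate numbers.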

Other observations

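In dgp1_LP, 1322 genes stood at 100 FPKM or more, and 35 of these were at 0 in dgp1_CK; 3 of the 8 pathway genes (NAS1, NAS2 and IRO2) and 2 of the other iron genes (NRAMP1 and MIR) were among the 35. Requiring 0 also in DJ_CK and both glk1glk2 libraries left 20 genes, with the same 3 pathway genes and MIR. The nearest annotated genes on either side of the 8, 13 outside the iron lists, were also counted. Between dgp1_LP and DJ_LP 1 of the 8 that passed 5 FPKM was higher and none lower, beside 20.9% and 13.4% of all genes. On low phosphate 2 of 8 were higher and 1 lower in DJ, beside 23.1% and 24.3%. In dgp1 3 of 9 were higher and 1 lower, beside 24% and 20.7%. With so few genes, nothing is read from these counts. The single gene of the first count is Os01g0952700, 1335 bases from IRO2 on the opposite strand, at 0.750 and 9.30 FPKM with control and low phosphate supply in DJ and at 4.53 and 39.8 in dgp1; it was named after its values were seen.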
